A study of Homo sapiens with 12 samples.

Results

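HuR (gene ELAVL1) is an RNA-binding protein that shuttles from the nucleus to the cytoplasm under stress and holds transcripts rich in A and U, many of which it protects from decay. In PDAC cells it is studied as part of the response to drugs that damage DNA. Olaparib is such a drug: it inhibits PARP enzymes, which mark DNA breaks for repair, and cells poor in homologous recombination are especially sensitive to it. The question taken up here was which transcripts were held by HuR more or less strongly after olaparib than after the solvent DMSO.

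The measure was a difference of differences, called the shift: the log2 signal in HuR-IP minus that in IgG-IP with olaparib, minus the same difference with DMSO. MiaPaCa-2 cells, an established human PDAC line, received DMSO, 10 µM olaparib or 1 µM gemcitabine, the drugs for 16 h, and RNA was recovered from cytoplasmic lysates with an antibody to HuR or with nonspecific IgG. Of the 12 Clariom D arrays of the series, 8 entered the shift, 2 for each of the groups DMSO-IgG, DMSO-HuR, OLAP-IgG and OLAP-HuR, and the 4 gemcitabine arrays served to define which genes HuR holds and to add to the estimate of spread. Both arrays of a group are named biological replicates, numbered 1 and 2, with nothing on whether they came from separate cultures, so p-values measure only the spread between these arrays. The shift was computed at array number 1, at array number 2 and from the group means, for 33458 genes with a transcript cluster of their own. No array of input RNA was used here, so a change in the amount of a transcript in the cytoplasm and a change in the share of it held by HuR cannot be told apart, nor can fewer cells with a transcript be told from less of it in each cell.

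Arrays were alike in overall brightness, with medians between 3.73 and 3.95 on the log2 scale, and antigenomic background probes had medians between 2.88 and 3.01. Genes with a mean above 6 over the 12 arrays numbered 9139. Of 11 measured epithelial and ductal markers 6 were above this level, led by the keratins KRT18 at 13.99 and KRT8 at 10.07. SOX9 was above it only through the HuR-IP arrays, with a mean of 6.94 over all arrays and 5.16 on IgG-IP. The epithelial markers EPCAM (3.29) and CDH1 (3.46) were near background, whereas the mesenchymal genes VIM (12.44) and ZEB1 (11.34) were bright. Of 21 measured markers of other pancreatic and stromal cell types 3 were above 6, namely the collagens COL1A1 and COL1A2 and the macrophage marker CD68. No marker of these 3 lists passed the unadjusted threshold for the shift.

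The strength of the pull-down differed between arrays. For the genes HuR holds it differed with the treatment at 1 of the 2 array numbers, and for those below IgG-IP at both. Genes were called HuR-enriched when gemcitabine HuR-IP exceeded IgG-IP by at least 1 at both array numbers, and HuR-depleted when it lay at least 1 below, which gave 805 and 1248 genes. At array number 1 the HuR-enriched genes had a median HuR-IP minus IgG-IP difference of 2.75 with DMSO and 2.77 with olaparib. At array number 2 the medians were 1.16 with DMSO and 2.77 with olaparib. By the HuR-enriched genes the 2 olaparib pull-downs and DMSO pull-down 1 were thus of like strength, and DMSO pull-down 2 was the weak one of the 4. Gemcitabine showed the same split, with 2.76 at number 1 and 1.49 at number 2. The HuR-depleted genes had medians of -2.24 and -1.48 with DMSO numbers 1 and 2, and of -2.94 and -2.80 with olaparib. On this side DMSO pull-down 1 also lay nearer to IgG-IP than both olaparib pull-downs. Over the 9139 brighter genes the SD of the difference was 2.02 and 1.12 for DMSO numbers 1 and 2, and 2.23 and 2.08 for olaparib.

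**Figure D1:**
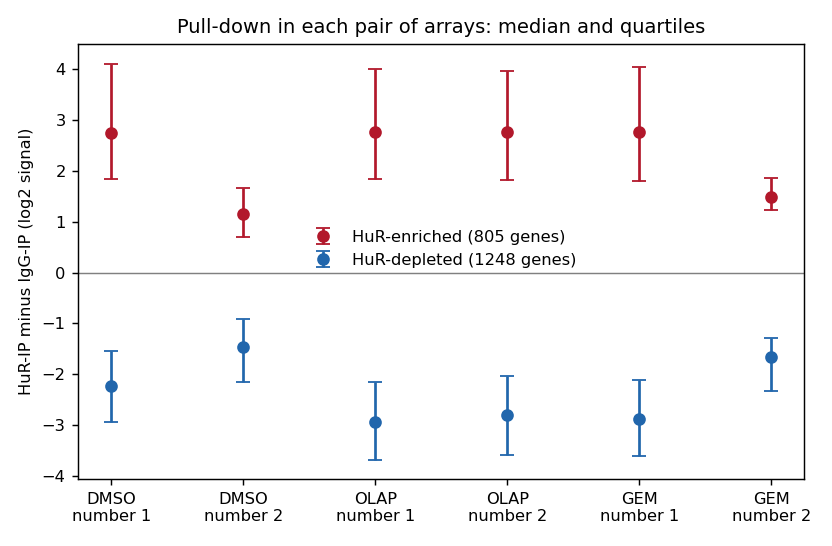
Median HuR-IP minus IgG-IP difference in log2 signal (vertical axis) in each pair of same-numbered arrays, for the 805 HuR-enriched and 1248 HuR-depleted genes, with bars from the lower to the upper quartile. DMSO number 2 and gemcitabine number 2, at 1.16 and 1.49 for the enriched genes, lie well inside the other 4 pairs, at 2.75 to 2.77.

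The HuR-enriched genes had a median shift of 0.86 from the group means, and 85.8% of them lay above 0. This general shift came from 1 array number: its median was -0.03 at number 1, where 381 of the 805 genes lay above 0, and 1.70 at number 2, where 706 did. Without the DMSO-HuR array numbered 2 the median from the group means was -0.38, and without the one numbered 1 it was 1.97. It lay on the HuR-IP arrays, which alone gave 0.86, and not on the IgG-IP arrays, which gave -0.02. The part of pull-down strength in this shift was not tested.

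The HuR-depleted genes lay lower with olaparib at both array numbers, by a median of -0.61 at number 1 and -1.28 at number 2 and by -0.96 from the group means. Of the 1248 genes 913 lay below 0 at both numbers and 32 above. All 9139 brighter genes together had a median of -0.53, with -0.29 at number 1 and -0.77 at number 2, so a brighter gene with no shift at all stood above most of its peers. A centring of each array on these brighter genes moved the median shift of all genes from -0.02 to 0.54, and the shifts and medians below, which are not centred, have -0.53 as the level of a typical brighter gene. Across these 9139 genes the shifts at numbers 1 and 2 correlated at r = 0.28, and across the HuR-enriched genes at r = -0.08, where the points share the same 8 arrays and genes are not independent replicates.

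**Figure D2:**
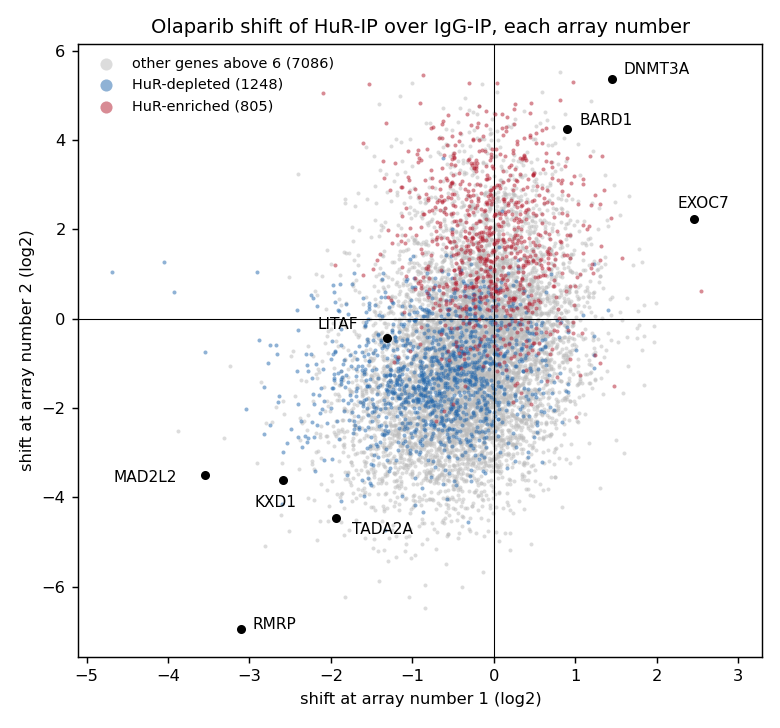
Shift of HuR-IP over IgG-IP with olaparib against DMSO (log2) at array number 1 (horizontal axis) and number 2 (vertical axis), 1 point for each of 9139 genes with a mean signal above 6. The HuR-enriched genes stretch upwards at number 2 around 0 at number 1, and EXOC7 (2.46 and 2.24) and MAD2L2 (-3.55 and -3.50) stand apart with nearly equal shifts at both numbers.

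No gene passed limma's adjusted p under 0.05 for the shift in either direction (0 of 33458, 2 arrays a group), and the smallest adjusted p was 0.9998, which is therefore the lowest that any gene named below had. At an unadjusted p under 0.05, the threshold used in the study, 392 genes were higher (1.17% of those tested) and 494 lower (1.48%), where 1672.9 would be past it by chance if no gene differed. Of the 9139 brighter genes, 24 were higher (0.263%) and 298 lower (3.26%), so most of the higher calls were of dim genes. This split depended on the scaling: the brighter genes gave 48 higher and 93 lower with centring on brighter genes, and 78 and 155 with cyclic loess. The HuR-enriched genes gave 7 higher calls (0.87%) and 0 lower, and the HuR-depleted ones 1 higher (0.0801%) and 167 lower (13.4%). With centring the higher HuR-enriched genes numbered 17 and the lower HuR-depleted ones 35, and with cyclic loess 19 and 69. Without the DMSO-HuR array numbered 2, the HuR-enriched genes gave 1 higher and 2 lower, and the HuR-depleted ones 1 higher and 107 lower. Without the one numbered 1, the HuR-enriched genes gave 94 higher and 1 lower, and the HuR-depleted ones 1 higher and 178 lower.

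Most of the shift lay on the HuR-IP arrays. Compared directly, olaparib HuR-IP against DMSO HuR-IP had 594 genes higher (1.78%) and 1357 lower (4.06%) at limma's unadjusted p, and 0 past the adjusted one. Olaparib IgG-IP against DMSO IgG-IP had 188 higher (0.562%) and 251 lower (0.75%), and 0 past the adjusted p. Over the brighter genes the SD of the olaparib minus DMSO difference came to 1.05 for the HuR-IP arrays and to 0.36 for those of IgG-IP. Within olaparib 145 genes were above IgG-IP (0.433%) and 1017 below (3.04%) at limma's adjusted p, and within DMSO 7 (0.0209%) and 160 (0.478%). These 2 pairs of counts do not test the difference between the treatments, which is what the shift does.

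EXOC7, a subunit of the exocyst that tethers secretory vesicles to the plasma membrane, was the clearest of the genes with a higher shift. Its cluster, TC1700011785.hg.1, read 8.36 and 8.38 on the DMSO-IgG arrays, 6.68 and 6.79 on DMSO-HuR, 7.43 and 7.33 on OLAP-IgG, and 8.21 and 7.98 on OLAP-HuR. HuR-IP thus lay below IgG-IP with DMSO, by -1.67 and -1.59, and above it with olaparib, by 0.79 and 0.65, with no overlap. The shift was 2.46 at number 1 and 2.24 at number 2, and 2.35 from the group means (SE 0.48, limma's unadjusted p = 0.00102), of which 1.36 lay on the HuR-IP arrays, while the IgG-IP signal fell by 0.99. Gemcitabine lay between, at -0.61 and -0.60. EXOC7 kept an unadjusted p under 0.05 in all 16 alternatives run, with shifts between 2.23 and 2.90 where the scale was kept. The alternatives refit the arrays from which EXOC7 was chosen for its low p, so they are not separate support. This holds for every gene below that was chosen by its p. Genes above 6 with HuR-IP below IgG-IP on both DMSO pairs and above it on both olaparib pairs numbered 31. Of these 5 were past the unadjusted p, and of 152 with the opposite pattern 18 were.

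Of 15 brighter protein-coding genes with a higher shift at the unadjusted p and at both array numbers, 6 were HuR-enriched: BARD1, SLC33A1, SLC47A1, CACUL1, INO80D and GSK3B. The seventh call among enriched genes was the pseudogene RBPJP2, outside the naming rule and added after its values were seen. SLC33A1 carries acetyl-CoA into the endoplasmic reticulum. It read 9.97 and 8.93 on DMSO-HuR and 10.69 and 10.80 on OLAP-HuR, against 8.08 and 9.02 on DMSO-IgG and 7.85 and 7.84 on OLAP-IgG. The olaparib HuR-IP arrays were above all others, and the shift was 0.95 at number 1 and 3.04 at number 2 (1.99, SE 0.70). SLC47A1, an exporter of organic cations and drugs, shifted by 0.71 and 3.14 (1.93, SE 0.73). CACUL1, a cullin-domain protein that acts with CDK2, shifted by 0.52 and 2.33 (1.43, SE 0.47), INO80D, of the INO80 chromatin remodeller, by 0.55 and 1.90 (1.22, SE 0.47), and the kinase GSK3B by 0.28 and 1.87 (1.08, SE 0.45). Each had the smaller value at number 1, where the enriched genes as a set had no shift, and the larger at number 2, where their median was 1.70.

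The remaining highest shifts were, apart from BIRC6, of genes that HuR-IP recovered at or below the level of IgG-IP with DMSO. PATJ, a scaffold of tight junctions and apical polarity, read 7.03 and 6.50 on DMSO-IgG, 6.68 and 6.53 on DMSO-HuR, 6.67 and 6.36 on OLAP-IgG, and 7.53 and 8.99 on OLAP-HuR. The olaparib HuR-IP arrays were the 2 highest of the 8, and the shift was 1.21 and 2.59 (1.90, SE 0.65). ARHGAP11A shifted by 1.31 and 0.96 (1.13, SE 0.45), with HuR-IP minus IgG-IP at -0.33 and 0.01 with DMSO and at 0.98 and 0.97 with olaparib. KBTBD4, a substrate adaptor of a cullin ubiquitin ligase, shifted by 0.73 and 1.46 (1.09, SE 0.42) but stayed below IgG-IP on every pair, and its IgG-IP signal was lower with olaparib, by -0.79. USF3, a transcription factor, shifted by 0.63 and 1.45 (1.04, SE 0.42), and BIRC6, a large inhibitor of apoptosis above IgG-IP on all 4 pairs, by 0.62 and 2.01 (1.31, SE 0.54). Of the 12 genes named from this end, EXOC7 alone was past the unadjusted p in all 16 alternatives; the other 11 were past it in 5 to 13.

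**Figure D3:**
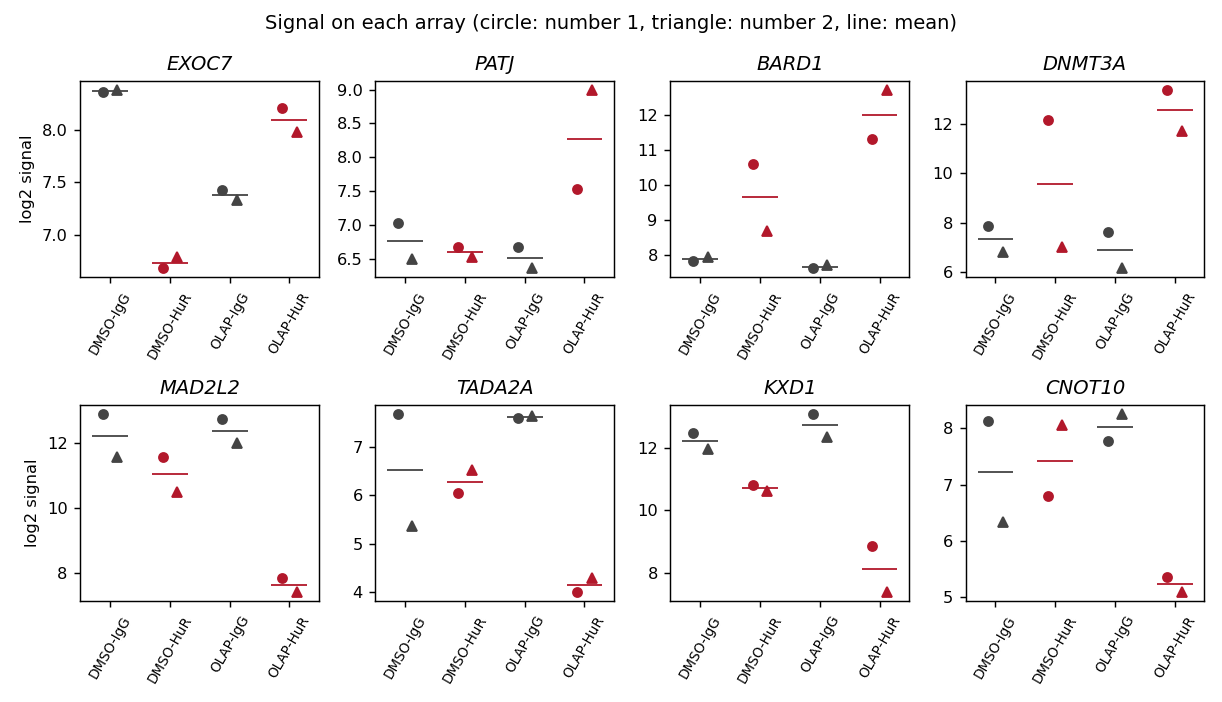
Log2 signal (vertical axis, its own range in each panel) of 8 genes on the 8 DMSO and olaparib arrays, IgG-IP in grey and HuR-IP in red, with circles for array number 1, triangles for number 2 and a line at the mean of 2. EXOC7 is lowest on DMSO-HuR at 6.68 and 6.79, and MAD2L2 falls to 7.85 and 7.42 on OLAP-HuR alone.

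MAD2L2, also known as REV7, a subunit of translesion polymerase zeta and of the shieldin complex that limits the resection of DNA ends, was the clearest of the lower shifts. Its cluster, TC0100012889.hg.1, read 12.89 and 11.54 on DMSO-IgG, 11.56 and 10.48 on DMSO-HuR, 12.72 and 11.99 on OLAP-IgG, and 7.85 and 7.42 on OLAP-HuR. Only the olaparib HuR-IP arrays were low, well below all 6 others. HuR-IP minus IgG-IP was -1.32 and -1.07 with DMSO, -4.87 and -4.57 with olaparib, and -3.30 and -1.46 with gemcitabine. The shift was -3.55 and -3.50 (-3.52, SE 0.86, limma's unadjusted p = 0.00313), nearly all of it on the HuR-IP arrays (-3.38). It was past the unadjusted p in all 16 alternatives, and lay between -4.20 and -2.85 where the scale was kept.

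Of 191 brighter protein-coding genes with a lower shift at the unadjusted p and at both numbers, 3 others of the 12 lowest were past it in all 16 alternatives. KXD1, of the complex that positions lysosomes, read 10.80 and 10.62 on DMSO-HuR and 8.83 and 7.38 on OLAP-HuR, with IgG-IP between 11.96 and 13.09 throughout, and shifted by -2.59 and -3.62 (-3.10, SE 0.87). TADA2A, an adaptor of histone acetyltransferase complexes, shifted by -1.94 and -4.48 (-3.21, SE 0.94), with a DMSO-IgG array at 5.36 where the other 3 IgG-IP arrays lay between 7.59 and 7.68. CNOT10, of the CCR4-NOT deadenylase that shortens poly(A) tails, shifted by -1.08 and -4.89 (-2.98, SE 0.84). For all 12 of the lowest genes both olaparib HuR-IP arrays were below both DMSO HuR-IP arrays, which the choice of the lowest favours.

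The other 8 of the 12 lowest were past the unadjusted p in 8 to 12 of the alternatives. PSMD8, a regulatory subunit of the proteasome, read 13.39 and 13.75 on DMSO-HuR and 10.28 and 9.98 on OLAP-HuR and shifted by -2.91 and -3.22 (-3.07, SE 1.10). RPS15, a protein of the small ribosomal subunit, shifted by -2.60 and -4.16 (-3.38, SE 1.23), and PI4KA, a phosphatidylinositol kinase, by -2.61 and -3.24. SAMD4A, the human Smaug protein that represses bound mRNAs, had the larger fall at number 1, -3.88 against -2.53. TUBG2, a gamma-tubulin, had the lowest shift of the 12 from the group means at -4.03 (SE 1.64), from -1.83 at number 1 and -6.22 at number 2, with the DMSO pairs at -1.86 and 0.80. NME4, a mitochondrial nucleoside diphosphate kinase, shifted by -1.77 and -4.74, C19orf53 by -2.14 and -4.52, and SCRN1 by -2.20 and -4.07. At number 1 all 12 genes lay below IgG-IP with DMSO already, so the shift there was a further fall.

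Each HuR-enriched gene was next set beside the general shift, as its excess over the median of the enriched genes at the same array number. Of 710 enriched protein-coding genes 324, a minority, had an excess of the same sign at both numbers, 163 above and 161 below. This is no more than shifts unrelated between the numbers would give, and r across all enriched genes was -0.08. Out of the 324 the 6 furthest on each side at the nearer number were named. Their equal sign and large excess at both numbers thus come from the choice. DNMT3A, a de novo DNA methyltransferase, was furthest above, with 1.48 at number 1 and 3.68 at number 2. It read 12.16 and 7.0 on DMSO-HuR, 13.36 and 11.72 on OLAP-HuR, and between 6.16 and 7.86 on IgG-IP, so DMSO-HuR number 2 alone lay at the level of IgG-IP. Its shift from the group means was 0.83 without that array and 5.99 without DMSO-HuR number 1. SERINC5, a membrane protein that restricts retroviruses, had excesses of 1.36 and 1.95, RAB8A, a GTPase of vesicle transport, 1.22 and 1.95, the zinc finger gene ZNF347 1.39 and 1.17, NLK, a kinase of Wnt and Notch signalling, 1.12 and 1.43, and SFT2D2, of retrograde vesicle transport, 1.02 and 1.5. With 1 array left out the shift of RAB8A ranged from 0.65 to 4.19 and that of NLK from 0.58 to 3.64. Against the 100 brighter genes nearest in the gemcitabine difference the excess of NLK was 1.14 at number 1 and -0.15 at number 2, while the other 5 stayed above at both numbers. None of these 6 passed the unadjusted p for the shift itself (0.0674 to 0.329).

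On the other side, RB1, the retinoblastoma tumour suppressor that restrains entry into S phase, was held less by HuR with olaparib than with DMSO at number 1, by 1.60 against 2.56, and more at number 2, by 1.66 against 1.0. Its excess was -0.93 and -1.04, as the general shift at number 2 was larger still. SDC3, a cell-surface proteoglycan, had excesses of -1.23 and -1.29, PIAS4, a SUMO ligase, -1.27 and -1.21, and LITAF, an endosomal protein, -1.28 and -2.13. TPD52L2 had -1.19 and -2.67, and the mitochondrial ribosomal protein gene MRPL50 -1.0 and -2.42. MRPL50 had the smallest SE of the 6: it read 11.11 and 10.35 on DMSO-HuR and 10.51 and 9.85 on OLAP-HuR, and its shift was -1.03 and -0.72 (-0.87, SE 0.47, limma's unadjusted p = 0.0975). Against the 100 genes nearest in the gemcitabine difference all 6 stayed below at both numbers, though PIAS4 by -1.26 at number 1 and by -0.16 at number 2. None of the 6 passed the unadjusted p.

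**Figure D4:**
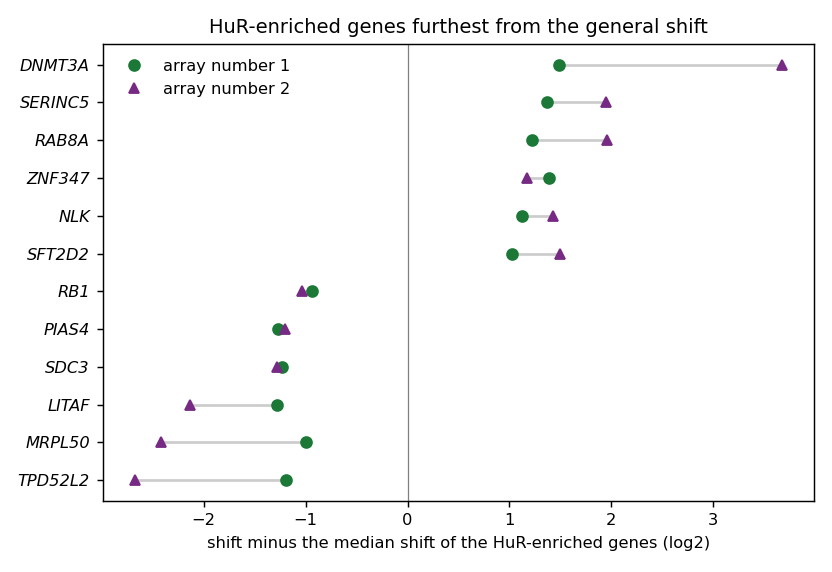
Excess of the shift over the median of the HuR-enriched genes (log2, horizontal axis) at array number 1 (circles) and number 2 (triangles) for the 12 protein-coding HuR-enriched genes named by their excess. RB1, PIAS4, SDC3 and ZNF347 have nearly the same excess over this median at both numbers, and DNMT3A ranges from 1.48 to 3.68. The genes were chosen for a large excess of equal sign at both numbers, so the plot does not show that the numbers agree.

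BARD1, which partners BRCA1 in homologous recombination and was named by the study for this very difference, had the highest group-mean shift of the brighter protein-coding genes past the unadjusted p. The study also measured BARD1 by RT-qPCR in separate HuR pull-downs and reports more of it with olaparib or oxaliplatin. Those data are not part of the arrays used here. The DMSO-HuR arrays read 10.62 and 8.69 and the OLAP-HuR arrays 11.31 and 12.72, all above IgG-IP, which lay between 7.64 and 7.95. Its shift was 0.90 at number 1 and 4.24 at number 2 (2.57, SE 1.12, limma's unadjusted p = 0.0488). The excess over the enriched genes was 0.93 and 2.54. Against the 100 brighter genes nearest to it in the gemcitabine difference, which shifted by a median of -0.10 and 2.45, BARD1 stood higher by 1.0 and 1.79. The shift was past the unadjusted p in 5 of 16 alternatives, and was 1.61 without the DMSO-HuR array numbered 2 (unadjusted p = 0.171) and 3.54 without the one numbered 1 (unadjusted p = 0.0113).

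Homologous recombination repair, as listed by Reactome, had 86 measured genes, of which 1 was higher and 2 were lower at the unadjusted p. Of all genes tested 1.17% were higher and 1.48% lower. The list had a median shift of -0.55, close to that of the brighter genes (-0.53). FEN1, the flap endonuclease, had -2.41 and -1.91 (-2.16, SE 0.92), and HERC2, a ubiquitin ligase at DNA breaks, -1.86 and -2.27 (-2.07, SE 0.83). BARD1 was the 1 higher. Centring on brighter genes put the list's median at 0.01, with 2 genes higher and 0 lower, and cyclic loess gave 1 higher and 0 lower. FEN1 and HERC2 were thus not past the unadjusted p with either other scaling. Of 20 Fanconi anaemia genes MAD2L2 was the 1 lower, and FANCC, of the core complex, had -2.80 and -2.34 (-2.57, SE 1.19, limma's unadjusted p = 0.0609). Of 20 ATR and G2 checkpoint genes ETAA1, which activates ATR at stalled forks, was the 1 lower at -1.85 and -1.36 (-1.61, SE 0.58). The Ku subunits XRCC5 and XRCC6, of non-homologous end joining (0 of 14 passed), had -0.88 and 0.16 at number 1 and -2.47 and -2.87 at number 2.

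Among 28 measured genes of the PARP family and ADP-ribose turnover, 1 was higher and 1 lower at the unadjusted p. The lower was FEN1, also counted above in homologous recombination, and the median was -0.28 against -0.53 for the brighter genes. PARP1, the main target of olaparib, shifted by 0.31 and 0.48 (0.40, SE 0.97), with HuR-IP minus IgG-IP between -0.53 and 0.28 on the 4 pairs. PARP2 shifted by -0.83 and -2.84 (-1.83, SE 0.95, limma's unadjusted p = 0.089), and PARP6 by -0.62 and -4.01 (limma's unadjusted p = 0.0741). PARG, which removes ADP-ribose chains, had 0.11 at both numbers (SE 0.38). The higher call was SLFN11, which sensitises cells to drugs that damage DNA, but its signal was dim, between 3.51 and 4.43 on the 8 arrays. WEE1, a kinase of the G2 checkpoint, shifted by 0.65 and 0.71 (0.68, SE 0.70, limma's unadjusted p = 0.356). It lay 1.20 and 0.85 over IgG-IP with DMSO and 1.85 and 1.56 with olaparib, so the olaparib pairs were above the DMSO pairs. Set against the median of the HuR-enriched genes, its shift differed by 0.68 at number 1 and by -0.99 at number 2. Gemcitabine gave 2.14 and 0.72 over IgG-IP. The mRNA of HuR itself, ELAVL1, was among the enriched genes and shifted by -0.36 and 1.48 (0.56, SE 0.78).

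Ribosomal protein and oxidative phosphorylation transcripts were for the most part below IgG-IP with DMSO and with olaparib, and their lists had the lowest medians after that of the spliceosome. Of 50 measured cytosolic ribosomal protein genes, 42 of them HuR-depleted, 14 were lower and 1 higher (RPS3A, 1.45) at the unadjusted p, against 3.26% lower of all brighter genes and 13.4% of all HuR-depleted ones, and 44 lay below 0 at both numbers. Their median was -1.20, with -0.70 at number 1 and -1.39 at number 2. RPL37A, of the large subunit, shifted by -1.14 and -1.69 (-1.41, SE 0.36, limma's unadjusted p = 0.00377), RPL10A by -2.21 and -2.66 (-2.43, SE 0.74), and RPL34 by -0.71 and -1.35. Near-identical pseudogenes of these genes can share probes with them. With centring on brighter genes the count was 2 lower and the median -0.65, with cyclic loess 6 and -0.67, and without the DMSO-HuR array numbered 2 it was 6 and -0.93, against 21 and -1.37 without the one numbered 1.

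Of 67 nuclear-encoded subunits of oxidative phosphorylation, 50 of them HuR-depleted, 10 were lower and 0 higher, with a median of -1.24, again beside 13.4% lower of all HuR-depleted genes. Complex III gave 2 of these: UQCR10 read 11.51 and 11.57 on DMSO-HuR and 9.49 and 8.75 on OLAP-HuR and shifted by -1.62 and -3.61 (-2.62, SE 0.68, limma's unadjusted p = 0.00433), and UQCRQ shifted by -0.95 and -2.09. NDUFA2, of complex I, had the larger fall at number 1 (-2.22 and -1.68). With centring on brighter genes 2 subunits were lower (median -0.69), with cyclic loess 6 (-0.66), and 5 without the DMSO-HuR array numbered 2 (-1.05). Of 38 core spliceosome genes 3 were lower, SNRPC of U1 (-1.32 and -1.58), LSM7 of U6 (-1.03 and -4.71) and SF3B5 of U2 (-1.82 and -1.27). The spliceosome list had the lowest median of those measured, -1.34, with 13 of its genes HuR-depleted and a median difference from IgG-IP with DMSO of -1.93 at number 1 and -0.22 at number 2. It had 2 lower calls with either other scaling, 0 without the DMSO-HuR array numbered 2 and 6 without the one numbered 1. PSMD8 was the 1 lower of 28 proteasome genes (median -0.75), and 5 were lower without the DMSO-HuR array numbered 1.

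The IgG-IP signal also fell with olaparib for replication-dependent histones, which made their shift (median -0.41) smaller than the fall in HuR-IP. Olaparib minus DMSO had a median of -1.08 over them in HuR-IP and of -0.67 in IgG-IP, against medians between -0.20 and 0.14 on the IgG-IP arrays for the other lists, and this contrast between lists was not tested. H2AC13 shifted by -1.48 and -1.91 (-1.70, SE 0.63) and H2BC12 by -2.31 and -2.64 (-2.47, SE 1.04), the 2 lower of 49, and both also had less IgG-IP signal with olaparib, by -0.97 and -0.57. Copies of histone genes are alike in sequence and can share probes. Of 39 S phase genes 2 were lower, ORC1, of the origin recognition complex (-0.93 and -2.21), and the dim E2F1, a transcription factor of S phase entry (-1.44 and -1.14). Of 36 mitosis genes 0 passed, or 7 lower without the DMSO-HuR array numbered 1, with AURKA, a spindle kinase, at -1.10 and -3.35. Of 29 receptor tyrosine kinases TYRO3 was the 1 lower (-0.47 and -1.96).

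Lists tied to HuR itself held no call on all arrays. With 1.17% of all genes tested higher and 1.48% lower, 0 calls in lists of this size is close to the general share. Of 41 measured transcripts reported as HuR targets 0 passed in either direction, with a median of -0.06, above the -0.53 of the brighter genes, and 10 of them were HuR-enriched here. Without the DMSO-HuR array numbered 1, 2 were higher and 1 lower. CCNA2, an S phase cyclin, had -0.53 and -2.60, PLAUR, a protease receptor, -1.10 and -2.05, and SIRT1, a deacetylase, -0.35 and -1.11. Of 37 genes of AU-rich element binding and mRNA decay 0 passed as well, yet this list, 16 of whose members were HuR-enriched, had the highest median of all lists, 0.43, with 0.16 at number 1 and 0.78 at number 2. Without the DMSO-HuR array numbered 2 its median was -0.28, and without the one numbered 1 it was 1.18. AGO3, of microRNA silencing, had 0.74 and 2.29 and TIA1, of stress granules, -1.72 and -1.10. In the p53 response, the interferon response, the integrated stress response, the E2 ubiquitin-conjugating enzymes and the early secretory pathway 0 of 24, 27, 20, 26 and 37 measured genes passed, with medians between -0.72 and -0.09; ATF4, the transcription factor of the stress response, was at -1.49 and -3.28 (limma's unadjusted p = 0.115). Centring on brighter genes took 13 of the 21 list medians below 0 above it, among them those of the homologous recombination, PARP (0.27), p53 (0.31), interferon (0.46), histone (0.14), early secretory (0.14) and HuR target (0.49) lists, and cyclic loess 5, among them p53 (0.04), early secretory (0.12) and HuR targets (0.23).

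**Figure D5:**
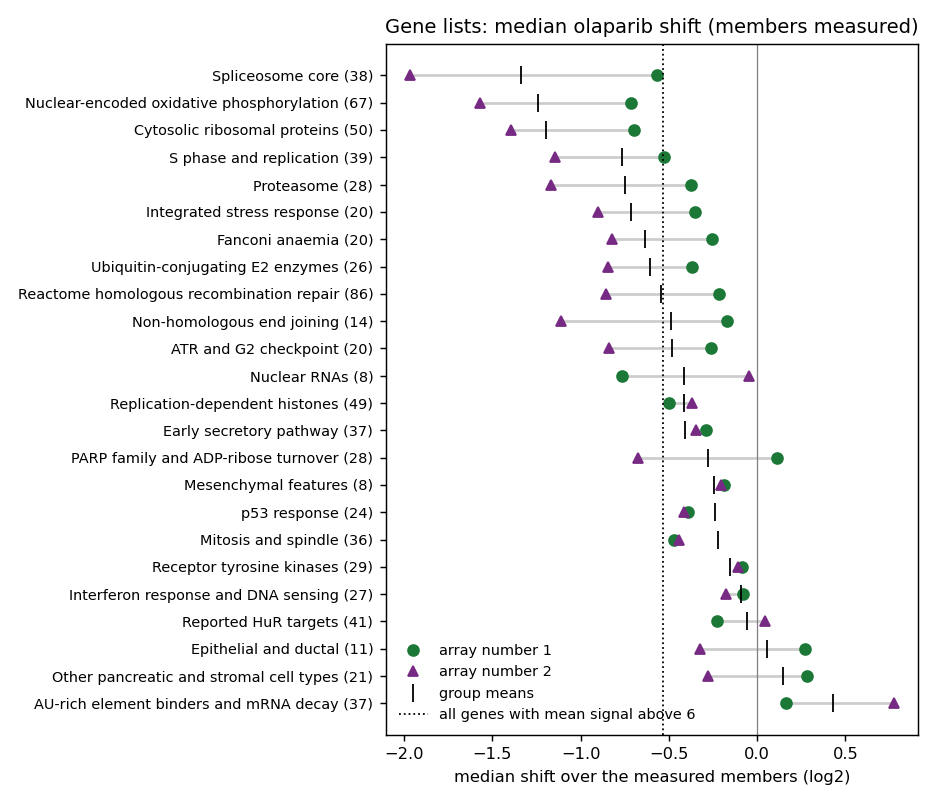
Median shift (log2, horizontal axis) of the measured members of each gene list at array number 1 (circles), at number 2 (triangles) and from the group means (vertical ticks), with the number measured in brackets. The dotted line is the median of all genes with a mean signal above 6, -0.53, and the ribosomal, oxidative phosphorylation and spliceosome lists lie furthest below it, at -1.20, -1.24 and -1.34.

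Among 214 long noncoding RNA genes above 6, 1 was higher and 3 were lower at the unadjusted p and at both numbers. Of all brighter genes 0.263% were higher and 3.26% lower at the unadjusted p, so these counts do not set long noncoding RNAs apart. PAX8-AS1, antisense to the PAX8 gene, read 7.53 and 8.45 on DMSO-HuR and 5.95 and 4.82 on OLAP-HuR, while IgG-IP ranged from 6.85 to 8.06. Its shift was -1.87 and -4.08 (-2.97, SE 0.93, limma's unadjusted p = 0.0117) and was past the unadjusted p in all 16 alternatives. HEIH had -1.49 and -2.29, LINC01588 -0.73 and -2.38, and LINC00452 was the 1 higher with 0.83 and 0.93 (0.88, SE 0.37). RMRP, the RNA of the endonuclease RNase MRP, had the lowest shift of any gene named here, -3.11 and -6.95 (-5.03, SE 1.96, limma's unadjusted p = 0.0322). It was the 1 lower of 8 measured nuclear RNAs, and with DMSO it lay at -0.42 and 1.75 against IgG-IP, the second of these on the weak pull-down. RN7SK, the 7SK RNA that holds back transcription elongation, was the brightest of these RNAs (mean 19.13) and had -1.46 and -0.77. Mitochondrially encoded mRNAs had no cluster of their own with a single gene symbol and were not analysed here.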

How the data were processed

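RNP-IP from MiaPaCa-2 lysates was measured on 12 Clariom D arrays. The authors normalized the arrays (RMA, Affymetrix Expression Console 1.4, per the submitters' processing notes) and deposited log2 signals, used here as deposited; the build of the array files is not given in the sources used here, so no coordinates are printed. RMA makes array distributions alike, so a pull-down that enriches many transcripts at once can lower others. Of 135750 transcript clusters, 36176 had 1 gene symbol in the annotation, 1119 several and 98455 were unnamed here. Symbols were updated with RefSeq (25516 clusters by gene ID, 9899 by symbol, 623 by older symbol, 138 unmatched), and the brightest cluster of each gene was kept.

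A linear model with 6 groups on 12 arrays was fitted in limma 3.58.1 (R 4.3.3; 6 residual and 2.42 prior degrees of freedom), without a block, with Benjamini-Hochberg adjustment over 33458 genes, and was tested on simulated data. The number of arrays limits the precision. The mean filter of 6 uses all 12 arrays. Named genes were the 12 highest and 12 lowest shifts among brighter protein-coding genes of equal sign at both array numbers with unadjusted p under 0.05, up to 3 such long noncoding RNAs a side, the 6 HuR-enriched genes furthest above and below the general shift, up to 3 members of each list by the moderated statistic, and genes the study names, of which those that bear on the text are given. Members, lists and rule were chosen with earlier results of these data known. Tables were prepared in Python 3.11.15 (pandas 2.3.3, matplotlib 3.10.9). Alternatives tried were cyclic loess, centring on brighter genes, the 8 arrays alone, a replicate block, a trended and robust prior, a filter on dim genes, the mean of a gene's clusters, scaling of each difference by its SD, leaving out each array, and other definitions of HuR-enriched. A comparison of the shift with protein length was planned but not run, as no protein lengths were used here.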

Additional observations from a re-analysis of the deposited data

Results flagged for a closer look

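For 4 of the 78 named genes, HuR-IP lay on 1 side of IgG-IP at both array numbers with DMSO and on the opposite side at both with olaparib. Of all 9139 brighter genes 31 went from below to above in this way and 152 from above to below. Most named genes were chosen for a large shift, statistic or excess, which favours the pattern. EXOC7 went from below IgG-IP to above it (shift 2.35), and the long noncoding RNA gene LINC00452 did so on a smaller scale (-0.52 and -0.11 with DMSO, 0.31 and 0.82 with olaparib, shift 0.88). PLK3, a stress-responsive kinase of the p53 list, went from 0.22 and 0.31 above IgG-IP to -0.67 and -1.24 (shift -1.22, SE 0.73, limma's unadjusted p = 0.131), and SIRT1 from 0.34 and 0.69 to -0.01 and -0.42 (shift -0.73, SE 0.50, limma's unadjusted p = 0.18). The differences of EXOC7 and LINC00452 passed limma's unadjusted p and none of the 4 passed the adjusted one (0.9998). Groups of 2 arrays are too small to look for outlying arrays by a fixed criterion.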

How the results depend on the processing

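The number of genes past limma's adjusted p was 0 for the shift and for the HuR-IP and IgG-IP arrays alone under every alternative run. At the unadjusted p the shift had 392 genes higher and 494 lower as reported. With centring on brighter genes these were 356 and 99, with the 8 arrays alone 333 and 761, with a prior both trended and robust 537 and 297, among genes above 6 alone 1 and 84, and with differences scaled by their SD 169 and 250. Leaving out 1 array gave 198 to 821 higher and 198 to 887 lower. On HuR-IP arrays cyclic loess gave 877 lower, and leaving out 1 array 216 to 986 higher and 611 to 1782 lower; on IgG-IP arrays the latter gave 119 to 470 and 184 to 836.

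The array number as a block gave 457 genes higher and 825 lower for the shift and 2187 lower on HuR-IP arrays. Same-numbered arrays deviated together from their group means (r = 0.25 to 0.91 over 15 pairs of groups, genes above 6). The highest r was between DMSO-HuR and GEM-HuR, and OLAP-HuR had 0.46 with DMSO-HuR and 0.52 with GEM-HuR. The labels name no shared batch, so the fit took no pairing by number. The shifts and excesses at each number did pair same-numbered arrays, and so did the rules that asked for agreement at both. The median shift of the HuR-depleted genes was -0.44 with cyclic loess and -0.41 with centring, and that of the HuR-enriched genes -0.38 to 1.97 with 1 array left out.

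Among 78 named genes, with cyclic loess and with centring SDC3 became 0.17 and 0.13, PIAS4 0.20 and 0.15, and RB1 0.44 and 0.40, and with scaled differences PARG became -0.025. With 1 array left out LITAF ranged from -2.62 to 0.87, SDC3 from -1.43 to 0.58, PIAS4 from -2.07 to 1.26, TPD52L2 from -3.24 to 1.04, RB1 from -1.27 to 0.97, ELAVL1 from -0.21 to 1.34, PARP1 from -0.40 to 1.19 and PARG from -0.036 to 0.26. The excess of ELAVL1, -0.30, became 0.27 against the 100 genes nearest in the gemcitabine difference, a reference added after seeing the data. Dimmer clusters of E2F1 (1.24), SAMD4A (0.85), RPS15 (0.16) and LINC00452 (-0.11) shifted the other way from the brightest. Those of RN7SK went both ways, from -0.95 to 0.67. The causes were not tested.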
